A study of Mus musculus with 8 samples.

Results

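The 9 genes described here belong to the bone morphogenetic protein (BMP) pathway: the ligand genes Bmp2 and Bmp4, the antagonist gene Grem1, the receptor gene Bmpr1a, the inhibitory SMAD genes Smad6 and Smad7, and the target genes Id1, Id2 and Id3. They were taken by symbol through GENCODE release M21, and 9 of 9 were found among the 20781 genes of the deposited count table and 9 of 9 passed the filter that left 16565 genes for testing. Bulk RNA sequencing was done on fibro-adipogenic progenitors (FAPs), muscle-resident mesenchymal cells with adipocyte and fibroblast fates. All FAPs were from male wild-type C57BL/6J mice (C57BL/6 in the sample labels) without injury, and the muscles named are quadriceps, gastrocnemius and tibialis anterior. After 48 h of culture they received vehicle (4 libraries) or melatonin (4 libraries) for 24 h. The melatonin dose is not given in the sources used here, and the extraction protocol names longissimus dorsi, another muscle.

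BMP ligands are secreted dimers that bind a pair of type I and type II serine/threonine kinase receptors. The type I receptor then phosphorylates SMAD1, SMAD5 and SMAD9, which enter the nucleus with SMAD4 and switch on target genes. Gremlin 1 and other secreted antagonists hold the ligand away from its receptors, and SMAD6 and SMAD7 act inside the cell as feedback inhibitors that BMP signalling itself induces. ID proteins are classic BMP targets. They have a helix-loop-helix domain but no DNA-binding region and block other transcription factors of that family by pairing with them. In mesenchymal progenitors BMP ligands are known to favour commitment to the adipocyte or bone lineage.

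Promoter sequences are shown for Smad6 and Grem1, which changed in opposite directions, and for Id2 and Id3, which did not pass the test, so that called and uncalled genes can be read side by side. They are RefSeq sequences on GRCm38.p6, 5′ to 3′ on the gene's strand, from 250 bases before the RefSeq start to 10 bases after it. That start lies 1048 bases (Id2) and 325 bases (Id3) inside the GENCODE M21 gene whose limits are given below, at its 5′ end for Smad6, and within 2 bases of it for Grem1. Capitals mark matches to one of 2 motifs, the SMAD palindrome GTCTAGAC and the GC-rich SMAD element GGCGCC, each its own reverse complement. Smad6 spans chr9:64022050-64022309 (minus), Grem1 chr2:113758639-113758898 (minus), Id2 chr12:25096083-25096342 (minus) and Id3 chr4:136143572-136143831 (plus).
Smad6: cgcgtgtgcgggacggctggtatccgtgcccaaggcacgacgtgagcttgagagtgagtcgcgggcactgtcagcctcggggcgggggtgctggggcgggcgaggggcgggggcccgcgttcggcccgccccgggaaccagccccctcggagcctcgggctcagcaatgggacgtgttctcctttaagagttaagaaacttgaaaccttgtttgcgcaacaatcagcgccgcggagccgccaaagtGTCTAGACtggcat
Grem1: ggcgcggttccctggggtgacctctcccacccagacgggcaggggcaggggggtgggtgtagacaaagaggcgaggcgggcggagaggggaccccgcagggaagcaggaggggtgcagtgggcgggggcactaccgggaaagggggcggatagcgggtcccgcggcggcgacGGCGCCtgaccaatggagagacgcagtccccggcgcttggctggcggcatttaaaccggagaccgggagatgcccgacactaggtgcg
Id2: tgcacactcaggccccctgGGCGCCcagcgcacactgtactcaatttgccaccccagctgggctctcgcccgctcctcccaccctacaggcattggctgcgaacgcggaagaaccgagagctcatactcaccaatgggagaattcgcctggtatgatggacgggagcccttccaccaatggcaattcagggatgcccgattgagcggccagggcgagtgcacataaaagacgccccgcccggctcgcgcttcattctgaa
Id3: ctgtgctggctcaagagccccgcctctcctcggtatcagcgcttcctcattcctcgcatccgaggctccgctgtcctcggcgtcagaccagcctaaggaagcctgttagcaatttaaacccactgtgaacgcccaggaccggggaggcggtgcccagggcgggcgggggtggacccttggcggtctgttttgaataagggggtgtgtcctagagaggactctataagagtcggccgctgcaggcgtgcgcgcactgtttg
In Smad6 the palindrome begins 4 bases before the start and runs across it. It occurs in 70 of 32851 RefSeq promoter windows of 300 bases (0.213%), and among the 9 genes in that of Smad6 alone, of 6 with an entry (all but Bmp2, Id1 and Smad7). The GC-rich element occurs in 3898 windows (11.9%), among them those of Grem1, 78 bases before the start, of Id2, 231 bases before it, and of Bmpr1a. Id3 has neither in its window. A match describes the letters in this window and is not evidence of SMAD binding.

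Library totals ran from 35584931 to 52401153 counts. FAP markers were present in every library (summed level 3973.0 to 4128.0 CPM with vehicle and 3977.0 to 4581.0 CPM with melatonin), as were markers of macrophages, of mural cells and of other cell types. Melatonin replicate 4 stood apart from the other 3 melatonin libraries on the second principal component (14.98% of variance, -58.92 against 19.83 to 29.1). It had the highest level of its group for 6 of the 9 genes (Bmp4, Grem1, Smad6, Id1, Id2 and Id3) and the lowest for Bmp2 and Bmpr1a. Levels are CPM, counts divided by library sizes that were scaled by the trimmed mean of M-values (TMM). A log2 fold change is positive where melatonin was higher and is given ± its standard error from edgeR's quasi-likelihood test, with p-values adjusted over all genes tested. Means below are over n = 4 libraries ± SD. In bulk samples, fewer cells of a type and less RNA per cell cannot be told apart.

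Of the 9 genes, Id1 and Smad6 rose with melatonin and Bmp2 and Grem1 fell, at an edgeR adjusted p under 0.05. Bmp4, Bmpr1a, Smad7, Id2 and Id3 did not pass. The 4 calls are 44.4% of the genes, against 36.5% of all genes tested, so their number is near the background and the description rests on the values of each gene. DESeq2, run without the filter, called 6538 of 20781 genes (31.5%). Of the 16565 filtered genes, limma-voom called 36.8%, edgeR with the replicate block 29.8%, and edgeR at an adjusted p under 0.01 called 23.3%. The same 4 of the 9 genes were called in each of these. The groups did not overlap for these 4 genes, against 37.7% of all genes tested. The median log2 fold change of the 9 genes was 0.14, and that of all genes tested was 0.01.

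**Figure D1:**
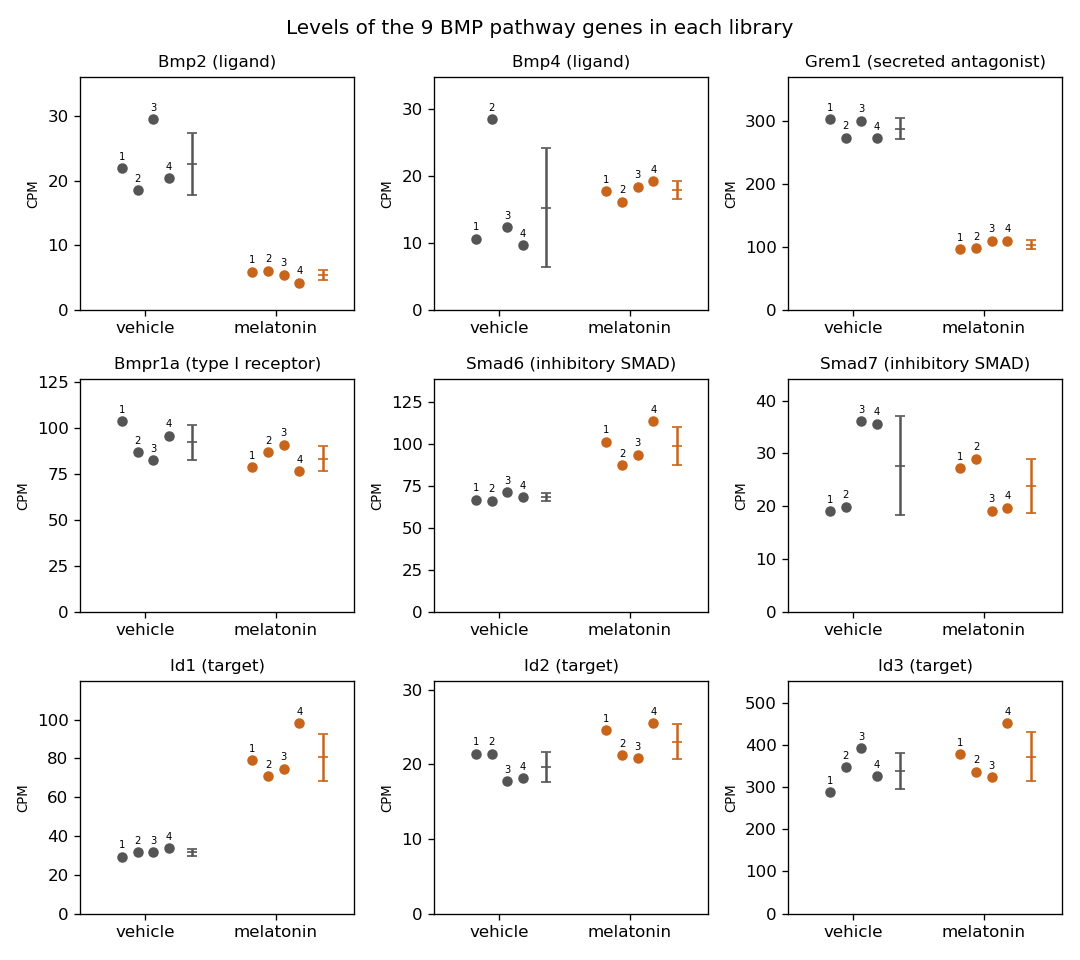
Level of each of the 9 genes (vertical axis, CPM from 0) in the 4 vehicle (grey) and 4 melatonin (orange) libraries, numbered by replicate, with the mean ± SD beside them. The groups separate for Bmp2, Grem1, Smad6 and Id1, and vehicle replicate 2 lies apart at 28.5 CPM for Bmp4.

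Bmp2 (ENSMUSG00000027358, GRCm38 chromosome 2, 133552159 to 133562885, plus strand) encodes a ligand known for inducing bone and, in progenitors, adipogenic commitment. It stood at 21.99, 18.59, 29.59 and 20.39 CPM in vehicle replicates 1 to 4 and at 5.87, 6.05, 5.39 and 4.16 CPM in melatonin replicates 1 to 4. Every melatonin library lay below every vehicle library, and vehicle replicate 3 was the highest of all. The mean went from 22.6 ± 4.84 to 5.37 ± 0.852 CPM, a 4.21-fold fall (-2.07 ± 0.17, edgeR adjusted p = 1.5e-05).

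Bmp4 (ENSMUSG00000021835, chromosome 14, 46383520 to 46390669, minus strand) encodes the ligand most often linked to adipocyte commitment of mesenchymal cells. It stood at 10.6, 28.5, 12.3 and 9.63 CPM with vehicle and at 17.7, 16.1, 18.4 and 19.3 CPM with melatonin. The melatonin libraries lay close together, above 3 vehicle libraries and below the other, vehicle replicate 2. Across all 8 libraries Bmp4 did not pass (0.23 ± 0.33, 95% confidence interval -0.536 to 0.995, edgeR adjusted p = 0.63). Without vehicle replicate 2 it was called higher (0.72, edgeR adjusted p = 0.0016, range 0.0016 to 0.91 over 17 alternatives), so 1 library decides this call, and the number of genes called higher among the 9 then goes from 2 to 3, with 31.5% of all genes tested called in that fit. Genes Gm15217 and Gm15222 overlap Bmp4 on the opposite strand and had 29 and 36 counts in all 8 libraries, against 2799 and 3298 Bmp4 counts in the vehicle and melatonin groups.

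Within a library the ratio of Bmp4 to Bmp2, in which scaling cancels, was 0.416 to 1.53 with vehicle and 2.67 to 4.63 with melatonin. The vehicle libraries other than replicate 2 had more Bmp2 than Bmp4 counts, and every melatonin library had more Bmp4. Counts are not corrected for the lengths of the 2 genes.

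Among the 14 BMP ligand genes listed, 9 were tested, of which 5 fell and 1 rose (median -0.59). Against the background of 18.5% of all genes tested called lower and 18.1% called higher, these are 55.6% and 11.1%. Gdf6, a ligand gene of joint and tendon formation, went from 16.0 ± 2.34 to 1.96 ± 0.573 CPM (-3.02 ± 0.22) and Gdf5, its close relative, from 1.87 ± 0.0895 to 0.415 ± 0.139 CPM (-2.15 ± 0.25). Bmp6, which in liver controls hepcidin and iron, fell from 40.7 ± 2.71 to 26.96 ± 0.92 CPM, and was the most abundant of these ligand genes in CPM, a scale that does not correct for length. Bmp5 was the ligand gene called higher (4.52 ± 1.09 to 6.42 ± 0.284 CPM, edgeR adjusted p = 0.039), and it lost that call in 7 of 8 fits that left out 1 library.

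Grem1 (ENSMUSG00000074934, chromosome 2, 113746164 to 113758646, minus strand) encodes gremlin 1, which binds BMP2, BMP4 and BMP7 outside the cell. It had 303.7, 274.0, 301.4 and 272.9 CPM with vehicle and 96.3, 98.0, 109.8 and 109.9 CPM with melatonin. The groups lay far apart, and neither held a library away from the rest. The mean went from 288.0 ± 16.8 to 103.5 ± 7.37 CPM, a 2.78-fold fall (-1.48 ± 0.07, edgeR adjusted p = 8.5e-07).

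The ratio of Grem1 to Bmp4 within a library was 9.62 to 28.65 with vehicle and 5.45 to 6.07 with melatonin. All 4 melatonin libraries lay under the lowest vehicle library, which was again replicate 2, in which Bmp4 was high. The vehicle libraries spread over 3.27 to 4.84 on the log2 scale and the melatonin libraries over 2.45 to 2.6.

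Of 19 listed secreted antagonists and modulators, Grem1 included, 15 were tested, 10 fell and 1 rose (median -0.62). These are 66.7% lower and 6.67% higher, against 18.5% and 18.1% of all genes tested. Fstl3, which binds activins and some BMPs, fell by 1.76 on the log2 scale. Tll1, a metalloprotease gene whose product can cleave the antagonist chordin and so free BMPs, fell by 2.07. Nog, encoding noggin, had low levels (3.2 ± 1.0 to 1.47 ± 0.394 CPM) and fell 2.17-fold, and Chrd, encoding chordin, fell by 0.62; these 2 genes were chosen after their values were seen. Htra1, a secreted serine protease gene whose product is known to bind TGF-beta family ligands, was the member called higher (189.4 ± 15.5 to 252.5 ± 12.97 CPM, 0.41 ± 0.07).

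**Figure D2:**
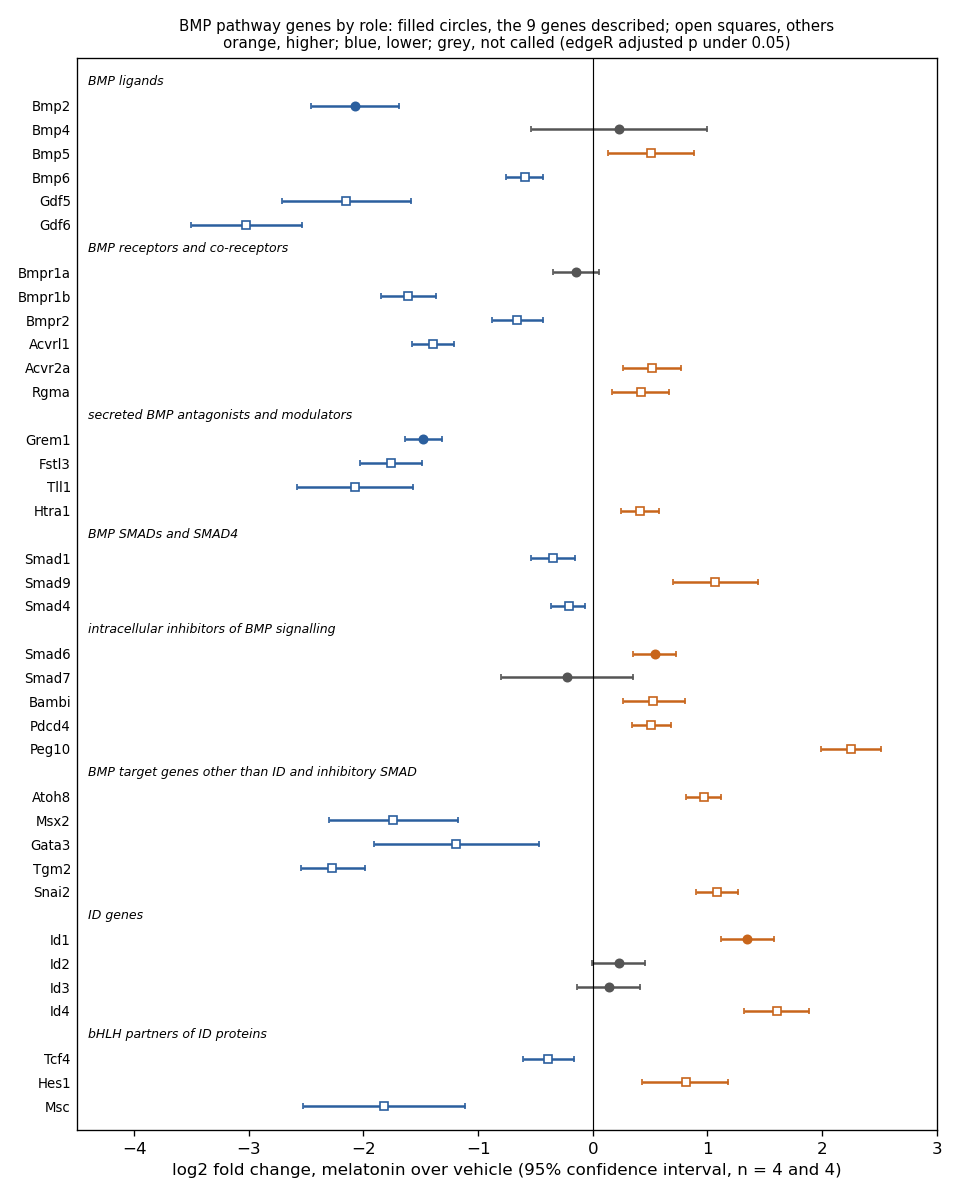
Log2 fold change (horizontal axis, melatonin over vehicle, n = 4 and 4) with its 95% confidence interval for the 9 genes (filled circles) and other genes named by rule (open squares), grouped by role. Bmp2 at -2.07 and Grem1 at -1.48 lie left of 0, and Id1 at 1.35 and Id4 at 1.61 right of it.

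Bmpr1a (ENSMUSG00000021796, chromosome 14, 34410734 to 34503341, minus strand) encodes a type I receptor for BMP2 and BMP4. Its levels were 103.5, 86.5, 82.25 and 95.5 CPM with vehicle and 78.55, 86.7, 90.7 and 76.15 CPM with melatonin. The groups overlapped over much of their range. The difference was small (-0.15 ± 0.09, 95% confidence interval -0.346 to 0.052, edgeR adjusted p = 0.23), and with library totals alone as the scaling its sign turned (0.01). A gene on the opposite strand, Gm17110, overlaps Bmpr1a and had 325 counts in all 8 libraries.

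Of 12 listed receptors and co-receptors, 11 were tested, 4 fell and 2 rose (median -0.12). These are 36.4% lower and 18.2% higher, against 18.5% and 18.1% of all genes tested, so the higher share is that of the background. Bmpr1b, the other classic BMP type I receptor gene, went from 11.7 ± 1.05 to 3.84 ± 0.293 CPM (-1.61 ± 0.11). Acvrl1, a type I receptor gene best known in endothelium, went from 200.5 ± 6.1 to 76.4 ± 8.42 CPM (-1.39 ± 0.08). The BMP type II receptor gene Bmpr2 fell from 84.55 ± 7.62 to 53.6 ± 6.5 CPM, while the activin and BMP type II receptor gene Acvr2a rose from 36.6 ± 5.7 to 52.4 ± 3.66 CPM. Rgma, a BMP co-receptor gene, was called higher (0.42 ± 0.11), although its groups overlapped.

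Smad6 (ENSMUSG00000036867, chromosome 9, 63953076 to 64022059, minus strand) encodes an inhibitory SMAD with a preference for BMP receptors. It had 66.6, 66.02, 71.3 and 68.3 CPM with vehicle and 101.2, 87.1, 93.5 and 113.5 CPM with melatonin. All melatonin libraries lay above all vehicle libraries, which themselves were tight. The mean went from 68.06 ± 2.35 to 98.8 ± 11.4 CPM, a 1.45-fold rise (0.54 ± 0.08, edgeR adjusted p = 7.7e-04), and without melatonin replicate 4 the log2 fold change was 0.47.

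Smad7 (ENSMUSG00000025880, chromosome 18, 75367529 to 75395935, plus strand) encodes the inhibitory SMAD that acts on both TGF-beta and BMP receptors. Its levels were 19.07, 19.9, 36.1 and 35.6 CPM with vehicle and 27.2, 29.0, 19.1 and 19.7 CPM with melatonin. In each group 2 libraries lay near 19 to 20 CPM and the other 2 well above them, so the spread within groups exceeded the difference between them (-0.22 ± 0.25, 95% confidence interval -0.796 to 0.355, edgeR adjusted p = 0.54). The ratio of Smad6 to Smad7 within a library ran from 1.92 to 3.49 with vehicle and from 3.0 to 5.76 with melatonin, and the groups overlapped.

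Of 13 genes listed as intracellular inhibitors, 13 were tested, 6 rose, Smad6 among them, and 0 fell (46.2% higher, against 18.1% of all genes tested). This share counts Peg10 and Pdcd4, described below by other roles, and the list was written with results of these data known. None was lower at an edgeR unadjusted p under 0.05 (the smallest was 0.075, for Skil), and DESeq2 and limma-voom also called 0 lower. Bambi, a pseudoreceptor gene and known BMP target, rose by 0.53 ± 0.12 (8.16 ± 0.686 to 11.8 ± 1.63 CPM). Peg10, an imprinted gene derived from a retrotransposon, rose from 14.06 ± 2.02 to 66.9 ± 6.12 CPM (2.25 ± 0.12), and Pdcd4, a translation inhibitor gene, by 0.51 ± 0.08. Among the SMADs that carry the BMP signal, Smad9 rose (2.4 ± 0.487 to 5.06 ± 0.561 CPM) and Smad1 fell (25.6 ± 1.92 to 20.2 ± 1.42 CPM). Smad4, the shared partner, was called lower by a small margin (-0.21 ± 0.07, edgeR adjusted p = 0.029), and with library totals alone as the scaling neither it (-0.06) nor Smad1 (-0.19) was called. Smad4 also lost the call with the replicate block and in 5 of 8 fits without 1 library.

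Id1 (ENSMUSG00000042745, chromosome 2, 152736251 to 152737410, plus strand) is among the most widely used readouts of BMP signalling. It had 29.35, 31.7, 31.6 and 33.8 CPM with vehicle and 78.96, 70.8, 74.75 and 98.2 CPM with melatonin. Every melatonin library was above every vehicle library by a wide gap, and melatonin replicate 4 was the highest. The mean went from 31.6 ± 1.83 to 80.7 ± 12.2 CPM, a 2.55-fold rise (1.35 ± 0.10, edgeR adjusted p = 1.0e-05), and without melatonin replicate 4 the log2 fold change was 1.25.

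Id2 (ENSMUSG00000020644, chromosome 12, 25093799 to 25097140, minus strand) encodes an ID protein also needed for full adipocyte differentiation. It had 21.4, 21.4, 17.7 and 18.1 CPM with vehicle and 24.5, 21.2, 20.85 and 25.5 CPM with melatonin. The groups touched, since the lower 2 melatonin libraries lay under the higher 2 vehicle libraries. Id2 did not pass with TMM scaling (0.23 ± 0.10, 95% confidence interval -0.003 to 0.458, edgeR adjusted p = 0.11) and was called higher with library totals alone (0.38, edgeR adjusted p = 0.016, range 0.016 to 0.25 over 17 alternatives), a scaling that moves the median of all genes tested from 0.01 to 0.17 and calls 44.3% of them.

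Id3 (ENSMUSG00000007872, chromosome 4, 136143497 to 136145755, plus strand) was the most abundant of the 9 genes. Its levels were 288.5, 347.3, 393.2 and 326.3 CPM with vehicle and 378.1, 337.2, 323.8 and 452.4 CPM with melatonin. The libraries of the groups were interleaved. The difference was 0.14 ± 0.12 (95% confidence interval -0.137 to 0.413, edgeR adjusted p = 0.42).

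Id1 thus moved relative to its 2 relatives within the same libraries. The ratio of Id1 to Id3 was 0.0804 to 0.104 with vehicle and 0.209 to 0.231 with melatonin, and that of Id1 to Id2 was 1.37 to 1.87 with vehicle and 3.22 to 3.85 with melatonin. Neither ratio overlapped between the groups. Smad7 relative to Id1 was 0.627 to 1.14 with vehicle and 0.201 to 0.41 with melatonin. These ratios are given as values, and the difference between the genes' changes was not tested.

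**Figure D3:**
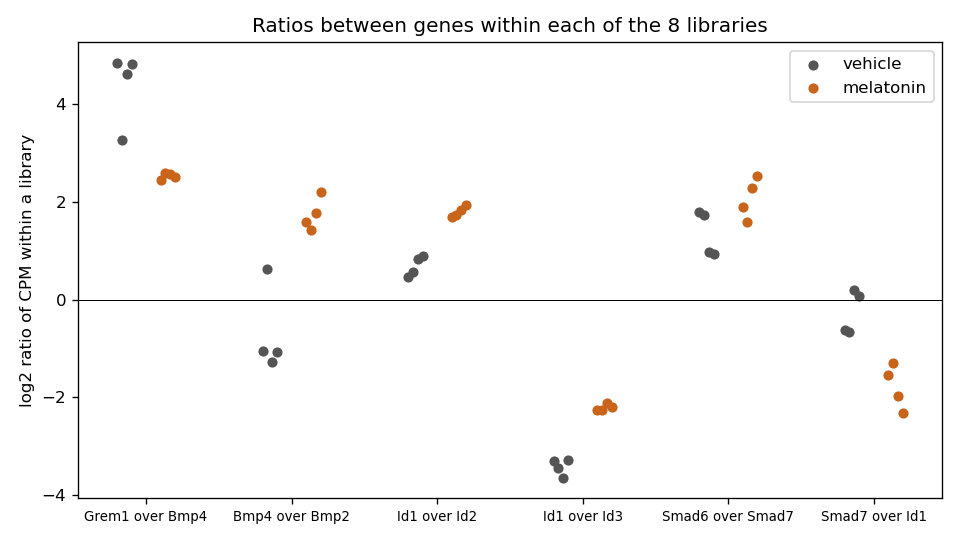
Log2 ratio of CPM between pairs of genes (vertical axis) within each of the 4 vehicle (grey) and 4 melatonin (orange) libraries. The groups overlap for Smad6 over Smad7 and are apart for the other 5 ratios; the vehicle library nearest to melatonin in the ratios with Bmp4 is replicate 2.

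The fourth ID gene, Id4, is no member but rose with Id1, from 7.31 ± 0.716 to 22.2 ± 3.43 CPM (1.61 ± 0.13, edgeR adjusted p = 1.1e-05). Of 15 other listed BMP targets, 13 were tested, 4 rose and 3 fell (median 0.18), which is 30.8% higher and 23.1% lower against 18.1% and 18.5% of all genes tested. Atoh8, a helix-loop-helix factor gene induced by BMP in endothelium and liver, rose from 52.5 ± 3.71 to 102.6 ± 4.8 CPM (0.97 ± 0.07), and Snai2, a zinc finger repressor gene, by 1.08 ± 0.08. In the other direction, the homeobox gene Msx2 went from 3.56 ± 0.728 to 1.07 ± 0.371 CPM, the crosslinking enzyme gene Tgm2 from 183.9 to 230.1 CPM with vehicle to 32.0 to 46.3 CPM with melatonin (-2.27 ± 0.13) and Gata3 from 0.81 ± 0.278 to 0.35 ± 0.0725 CPM, a call that Gata3 lost without vehicle replicate 2 (edgeR adjusted p = 0.051). Among 12 tested helix-loop-helix genes, most of them possible partners of ID proteins, 1 rose and 2 fell (median -0.11). These are 8.33% and 16.7%, counts too small to set apart from the 18.1% and 18.5% of all genes tested. The Notch target Hes1 rose by 0.81 ± 0.17, the E-protein gene Tcf4 fell by 0.39 and Msc fell by 1.82. With library totals alone Tcf4 was not called (-0.23). Over all lists of the pathway, each gene counted once, 80 genes were tested, 18 rose and 26 fell, which is 55% called, against 36.5% of all genes tested. The lists are small, none was tested as a set, and they were written with results of these data known.

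Levels of different genes were compared per kb of exon. Id3 led in both groups (189.2 ± 24.4 CPM per kb with vehicle and 208.2 ± 32.3 with melatonin). With vehicle, Grem1 followed at 69.4 ± 4.05 CPM per kb, then Id1 at 27.3 ± 1.58, Smad6 at 21.2 ± 0.732, Bmpr1a at 14.5 ± 1.49 and Id2 at 8.06 ± 0.832, and the ranges of these neighbours did not overlap. Bmp4, Bmp2 and Smad7 came last (6.79, 6.37 and 6.12 CPM per kb) with overlapping ranges. The range of Bmp4 (4.28 to 12.68 CPM per kb) also overlapped that of Id2 (7.26 to 8.78 CPM per kb). With melatonin the order was Id3, Id1 at 69.5 ± 10.5 CPM per kb, Smad6 at 30.8 ± 3.54, Grem1 at 24.95 ± 1.78, Bmpr1a, Id2, Bmp4, Smad7 and Bmp2, and of these neighbours only Id2 and Bmp4 had overlapping ranges. Grem1 thus went from the second to the fourth place and Bmp2 to the last, at 1.51 ± 0.24 CPM per kb.

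**Figure D4:**
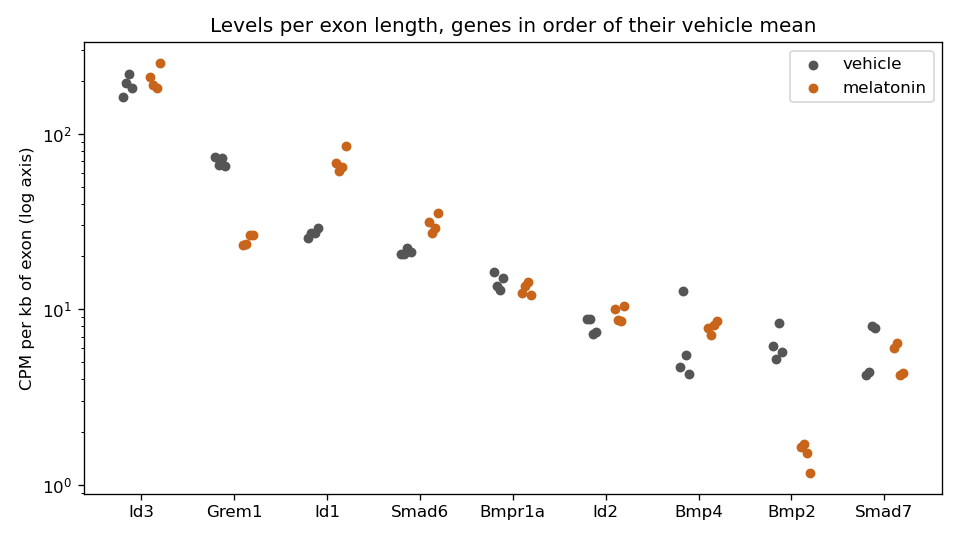
Level per exon length (vertical log axis, CPM per kb) of the 9 genes in the 4 vehicle (grey) and 4 melatonin (orange) libraries, ordered by the vehicle mean. Id3 is highest in both groups, and Id1 lies above Grem1 with melatonin only.

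By correlation of log2 CPM over the 8 libraries, the genes most like Id1 were Mvk, Arxes2 and Gnpda1 (Pearson r = 0.999, 0.999 and 0.996). Those most like Grem1 were Cyp1b1, Tspan11 and Bmpr1b (r = 0.998, 0.998 and 0.997). For Bmp4 they were Ndufb4c, Fam110b and Pcdhb8 (r = 0.961, 0.938 and 0.924). The 8 points share 2 groups and their sequencing depth, and the highest of 16564 correlations is high by selection, so these are descriptions.

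The summed levels of adipocyte, endothelial, mesothelial and satellite cell markers did not overlap between the groups, and those of macrophage, mural, tendon, Schwann cell and FAP markers did. The 10 endothelial markers, of a cell type that expresses ID genes and Smad6, summed to 40.5 to 49.9 CPM with vehicle and 60.2 to 70.9 CPM with melatonin. Among them 2 genes were called higher and 1 lower, and none was at 0. Much of the rise in the sum lay in Tek (17.1 ± 1.51 to 35.3 ± 3.61 CPM). Egfl7 also rose (5.16 ± 0.716 to 10.3 ± 1.1 CPM), and Vwf fell (2.48 ± 0.77 to 0.576 ± 0.383 CPM). The other endothelial markers, Pecam1 and Cdh5 among them, did not pass. The 12 adipocyte markers summed to 875.5 to 992.0 CPM with vehicle and 2428 to 3307 CPM with melatonin, with 11 called higher. The 9 macrophage markers summed to 487.9 to 742.8 CPM with vehicle and 327.6 to 615.1 CPM with melatonin, with 1 called in each direction. The 8 mural markers summed to 138.5 to 180.7 CPM with vehicle and 115.6 to 197.7 CPM with melatonin, with 2 called higher and 1 lower. Of 7 tendon markers 2 fell (4073 to 5420 CPM with vehicle, 3811 to 4248 CPM with melatonin). Of 6 tested Schwann cell markers 2 rose (54.3 to 61.97 and 61.6 to 92.7 CPM), and of 2 tested mesothelial markers 1 fell (10.4 to 16.9 and 5.96 to 6.95 CPM). The mesothelial markers Lrrn4 and Wt1 were at 0 in all melatonin libraries. With vehicle they had only 14 and 27 counts in all, and neither was tested. Krt19 made up most of the mesothelial sum (12.6 ± 2.98 CPM with vehicle and 5.79 ± 0.546 CPM with melatonin). Pax7 and Myf5, listed among 8 satellite cell and myoblast markers, were not found by symbol in the count table. The other 6 satellite cell and myoblast markers were tested, 1 rose and 2 fell (517.5 to 717.2 and 353.6 to 431.5 CPM). Most of that sum was Vcam1 (542.9 ± 87.1 with vehicle and 378.9 ± 29.9 CPM with melatonin), which other cell types also express, while the myogenic factor genes Myod1 (0.82 ± 0.41) and Myog (0.65 ± 0.30) did not pass. Of 11 FAP markers 1 rose and 5 fell. The 1 that rose, Gsn, went from 973.6 ± 59.2 to 2069 ± 210 CPM, a large part of the FAP sum. Among the 5 that fell, Dcn went from 910.6 ± 84.5 to 350.7 ± 42.0 CPM and Ly6a from 336.0 ± 32.8 to 224.4 ± 21.8 CPM. The overlapping FAP sums therefore do not show that single FAP markers were unchanged. Melatonin replicate 4 had the lowest sum of its group for the FAP, adipocyte, endothelial, macrophage, mural, satellite cell and Schwann cell lists. Genes of the mitochondrial genome took 1.05% to 1.3% of counts with vehicle and 2.09% to 2.44% with melatonin. The part of these values in the changes of Id1, Smad6, Bmp2 and Grem1 was not tested.

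**Figure D5:**
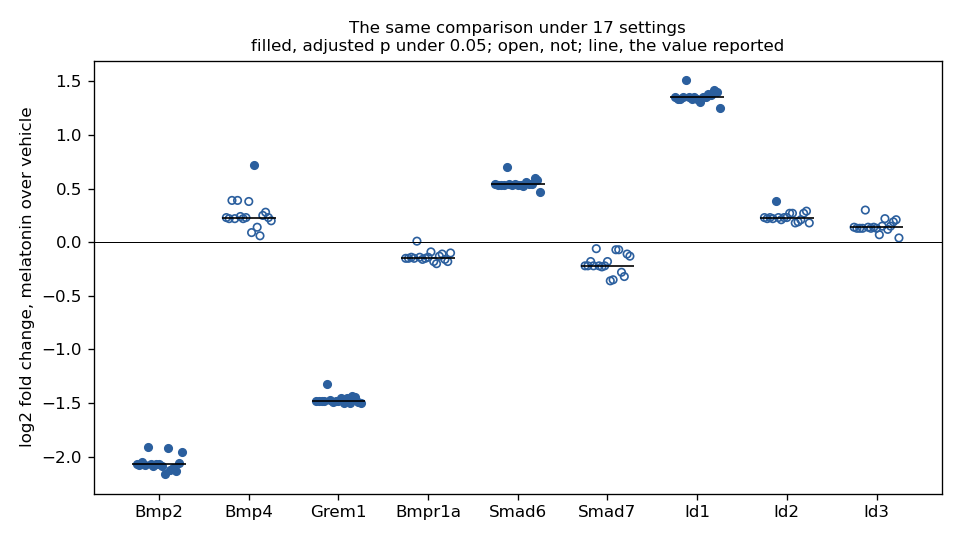
Log2 fold change of each of the 9 genes (vertical axis) under 17 settings of the comparison, drawn left to right as the fit reported, 8 other tools, scalings or filters, and 8 fits without 1 library. Filled points passed at an adjusted p under 0.05 and open points did not; Bmp4 has 1 filled point (0.72, without vehicle replicate 2), as has Id2 (0.38, library totals alone).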

How the data were processed

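The authors deposited a table of raw counts for 20781 Ensembl genes in 8 libraries. Build mm10 is named, and so are HISAT2 2.0, StringTie 1.3.3b, bedtools 2.26.0, Trimmomatic 0.36, FastQC 0.11.2 and DESeq2 1.12.4, without their roles, per the submitters' processing notes. Which program counted reads, with which annotation and strand setting, is not given in the sources used here, so reads of a gene and its antisense partner cannot be told apart. The columns named con were read as vehicle. Every listed gene totals at least 11 counts.

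Symbols, positions and exon lengths came from GENCODE M21 (GRCm38), which held 20720 of the gene IDs. Genes were filtered with filterByExpr (16565 kept, 4216 not tested), scaled by TMM and tested with edgeR 4.0.16 (robust quasi-likelihood F-test, two-sided, group only, Benjamini-Hochberg, threshold 0.05). Standard errors were taken from the F statistic. CPM used TMM-scaled library sizes. DESeq2 1.42.0, limma-voom 3.58.1, other scalings and filters, a threshold of 0.01, a replicate block and fits without each single library were alternatives. The scripts were tested on simulated data.

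Labels call the libraries biological replicates. Replicates differed by more than sampling noise (chi-square 25.4 to 81.1 per gene). Molecular identifiers are not described. The 9 genes, the lists and the rule for naming genes were chosen with earlier results of these data known. The rule names the 9 genes, the 3 other genes of each pathway list with the smallest p, genes called against their list's direction, and the 3 genes most correlated with Id1, Bmp4 and Grem1; 1 gene it names is not reported here. The motifs and the promoters shown were chosen after other results were known.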

Additional observations from a re-analysis of the deposited data

Results flagged for a closer look

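Among 37 genes checked in 2 groups of 4 libraries (74 groups), 3 had a library whose gap to the nearest other library exceeded Dixon's 95% critical value for 4 samples, as a share of the group's range. Chance flags about 1 in 20 groups, which is close to this number. For Bmp4, vehicle replicate 2 had 28.5 CPM and the other 3 vehicle libraries 9.63 to 12.3 CPM. The call of Bmp4 depends on that library. For Htra1, vehicle replicate 1 had 166.3 CPM, below the others at 195.6 to 198.8 CPM. For Smad4, melatonin replicate 3 had 62.8 CPM, above the others at 55.6 to 56.5 CPM.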

How the results depend on the processing

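Bmp2, Grem1, Smad6 and Id1 kept their direction and their call under all 17 alternatives, with log2 fold changes of -2.16 to -1.91, -1.50 to -1.32, 0.47 to 0.70 and 1.25 to 1.51. Leaving out each library in turn gave 0.06 to 0.72 for Bmp4. With library totals alone Bmpr1a turned to 0.01 and Id2 was called at 0.38. Smad7 and Id3 stayed uncalled in all 17.

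For the pathway lists, the ligand genes called higher went from 1 to 0 at a threshold of 0.01. Those called lower went from 5 to 4. When libraries were left out, the ligand genes called higher were 0 to 1. The receptor genes called higher went from 2 to 1 at 0.01. With library totals alone, 3 antagonists were called higher in place of 1, the lower SMAD genes went from 2 to 0, and the helix-loop-helix genes called higher and lower went to 2 and 1. SMAD genes called lower were 1 with the replicate block, 0 at 0.01, and 1 to 2 when libraries were left out. Helix-loop-helix genes called lower were 1 at 0.01 and 1 with at least 1 CPM in 4 libraries, and those called higher were 1 to 2 without single libraries. The cause of these moves was not tested.

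The sources used here name no pairing of the replicate numbers. Over all genes tested, the correlations of same-numbered libraries' deviations from their group means were 0.039, -0.042, -0.021 and 0.002. Those of differently numbered libraries ran from -0.109 to 0.158. These values cannot tell whether libraries of the same number were handled together, and Ski was low in replicate 2 of both groups. The replicate block kept the calls of the 9 genes (Id1 at 1.34, Bmp4 at 0.38) and lowered all calls from 6054 to 4942. Of 474 results for other named genes, 451 kept direction and call and 23 lost the call. Per exon length or per longest transcript, Bmp2 and Smad7 exchanged the last 2 places with vehicle. With melatonin and per longest transcript, the ranges of Bmpr1a and Id2 overlapped (12.79 to 15.23 and 10.59 to 12.96 CPM per kb). Bmp4 then lay below Id2 without overlap (7.82 to 9.33 CPM per kb), unlike per exon length. For Bmpr1a, Id2, Id3, Smad7 and Bmp4 the 95% confidence interval held 0. Their standard errors were 0.09, 0.10, 0.12, 0.25 and 0.33, against 0.07 for Smad4, which was called at -0.21.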

Other observations

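Smad5, which encodes a SMAD that carries the BMP signal, had 25.1 CPM in vehicle replicate 2 and 49.8 to 56.2 CPM in the other vehicle libraries. Ski, a repressor of SMAD complexes, had 4361 and 5202 counts in replicate 2 of vehicle and of melatonin and at least 12246 counts in each of the other 6 libraries. These 2 genes were chosen after their values were seen. Among 9268 genes with a mean of at least 10 CPM, vehicle replicate 2 lay more than 2-fold above all other vehicle libraries for 13 genes, Bmp4 among them, and more than 2-fold below them for 22. The other vehicle libraries did so for 5 to 17 genes above and 11 to 22 below. Melatonin replicate 4 lay more than 2-fold below the other melatonin libraries for 134 genes, none of which is one of the 9.

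Zfp423, a zinc finger gene whose product is known to make preadipocytes responsive to BMP, went from a mean of 6.63 to 15.7 CPM (1.25 ± 0.14, edgeR adjusted p = 9.2e-05), and Dlx5, a BMP-induced homeobox gene, from 0.253 ± 0.0991 to 0.827 ± 0.32 CPM (1.68 ± 0.38). Both were picked after their values were seen, from the list of BMP targets. Zfp423 is thus among the 4 listed targets called higher, although the role named here is in the response to BMP.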
